A study of Mus musculus with 6 samples.

Results

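The 38 genes described here carry glucose into cells, break it down to pyruvate and lactate, or respond to low oxygen. They were chosen by gene name for their roles, with earlier results of these data known, from 24346 names in all. All 38 were found, and all 38 had a mean of at least 1 FPKM (fragments scaled by transcript length and by sequencing total), so each was tested among 13180 names. The tissue was the calvaria, the bony roof of the skull, of newborn mice, with the interparietal and occipital bones kept and the ear cartilage left out. The 3 control libraries came from mice with the Pth1rfl/fl genotype, which carry floxed alleles of the receptor for parathyroid hormone and its related protein and no Cre. The 3 libraries labelled mutant came from Prx1-Cre;Pth1rfl/fl mice, which carry the same floxed alleles and a Cre transgene known to act in mesenchyme of the limbs and part of the skull. The labels do not say which exons are removed, how many animals went into a library or how the animals are related, so p-values measure only the spread between these libraries.

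Glycolysis splits glucose into pyruvate with a small yield of energy that needs no oxygen, and lactate dehydrogenase turns the pyruvate into lactate. Chondrocytes, which live in cartilage without vessels, and osteoblasts, which build bone, are both known to lean on this route. Low oxygen stabilises the hypoxia-inducible factors (HIF), which are otherwise marked for destruction by prolyl hydroxylases and the von Hippel-Lindau protein, and HIF raises many genes of glucose use. Skeletal muscle and red cells have glycolytic genes of their own, and a dissected skull carries both.

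The targeted gene did not show the loss that the labels imply. Pth1r had 89.2, 93.3 and 102 FPKM in controls 1 to 3. Libraries 1 to 3 labelled mutant had 127, 124.9 and 142 FPKM, all above the controls, with an adjusted p of 0.065 in limma. A value for the whole gene can hold reads from exons that remain, and its span overlaps the muscle gene Myl3 on the opposite strand. Each direction below is therefore that of the labels alone. The libraries differed little in scale, with median-of-ratios factors from 0.999 to 1.01, and log2 values correlated at 0.971 to 0.979 within groups and 0.967 to 0.977 between them. The steps of the lowest values put depth, with control 1 set to 1, at 0.845 and 0.914 in the other controls, and at 0.972, 0.778 and 0.703 for the libraries labelled mutant, in order. Bone markers were present, as the tissue label implies. The 7 osteoblast markers summed to between 10740 and 15720 FPKM, most of it Col1a1 at 9427 to 13131 FPKM. Ibsp had 831 to 954 FPKM across the controls and 1485 to 2004 FPKM in those labelled mutant, with an adjusted p of 0.0306 in limma. Dmp1 had 39.6 to 52.2 FPKM and 61.7 to 73.7 FPKM. Alpl, Runx2 and Phex were also higher without overlap, and with Dmp1 had adjusted p values in limma from 0.15 to 0.422. Col1a1 and Sp7 overlapped between groups. The 10 skeletal muscle markers summed to 10649 to 20191 FPKM, so the size of a sum does not identify the tissue.

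None of the 38 genes passed the threshold of 0.05 for the adjusted p (limma with Benjamini-Hochberg adjustment over all names tested), against 0.607% of all names tested, 0.524% higher and 0.0835% lower. At an unadjusted p under 0.05 there were 4 of 38, or 10.5%, against 10.5% of all names tested, so this share equals the background. Of these 4, the HIF subunit gene Epas1 and the mitophagy gene Bnip3l had higher means in those labelled mutant, and the lactate transporter gene Slc16a1 and the oxygen sensor gene Egln1 had lower means. The groups did not overlap for 4 members, 1 higher and 3 lower, against 16.1% of all names tested (9.34% higher and 6.79% lower). The log2 change ran from -0.26 to 0.20 over the members with a median of -0.06, beside a median of 0.0015 over all names tested, and 25 members had a change below 0 and 13 (34.2%) above, against 50.5% above for all names tested. The smallest adjusted p was 0.232, and the smallest in any of the 16 other settings tried was 0.0803.

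**Figure D1:**
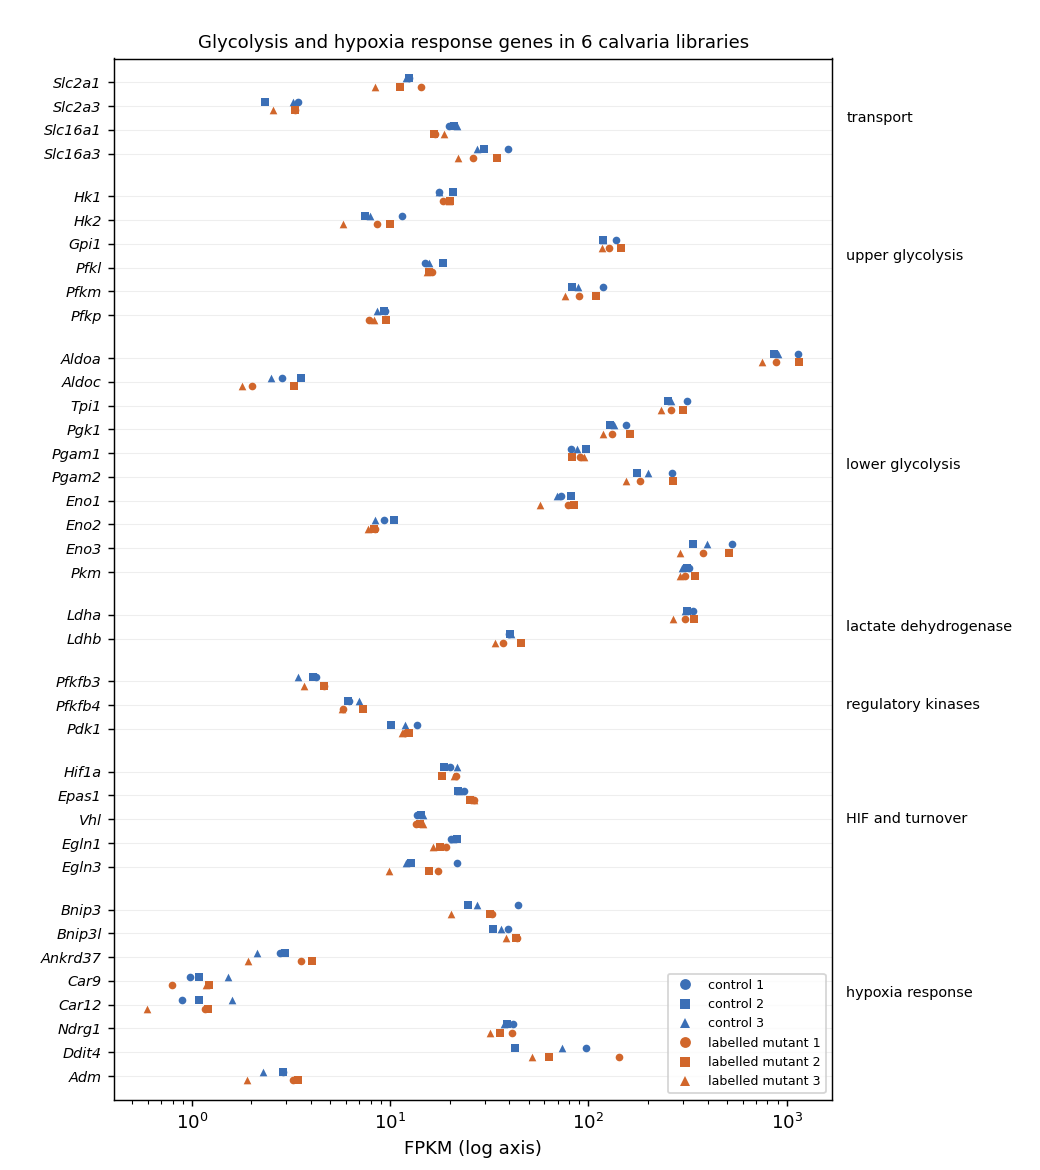
FPKM on a log axis of each of the 38 genes in the 6 libraries, in rows grouped by role, with controls in blue above and libraries labelled mutant in orange below each line. The symbols of the groups overlap for all but 4 genes, and the orange triangle, library 3 labelled mutant, is often the leftmost.

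The intervals of the changes show how precisely each was known. For 29 of the 38 members the 95% interval of the log2 change lay within 1.5-fold either way on the log2(FPKM + 1) scale, a scale that understates changes of genes near 1 FPKM, and the same was true of 87.3% of all names tested. For Ldha, which encodes the main lactate dehydrogenase of glycolytic tissue, the interval ran from -0.30 to 0.15. For Hif1a, which encodes the oxygen-regulated subunit of the first HIF, it ran from -0.20 to 0.21, and for Vhl, the gene of the von Hippel-Lindau protein, from -0.15 to 0.13. The 9 members whose interval reached past that were Slc16a3, Hk2, Aldoc, Pgam2, Eno3, Egln3, Bnip3, Ankrd37 and Ddit4. The widest was that of Ddit4, a stress-induced inhibitor of growth signalling, from -0.79 to 1.20.

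**Figure D2:**
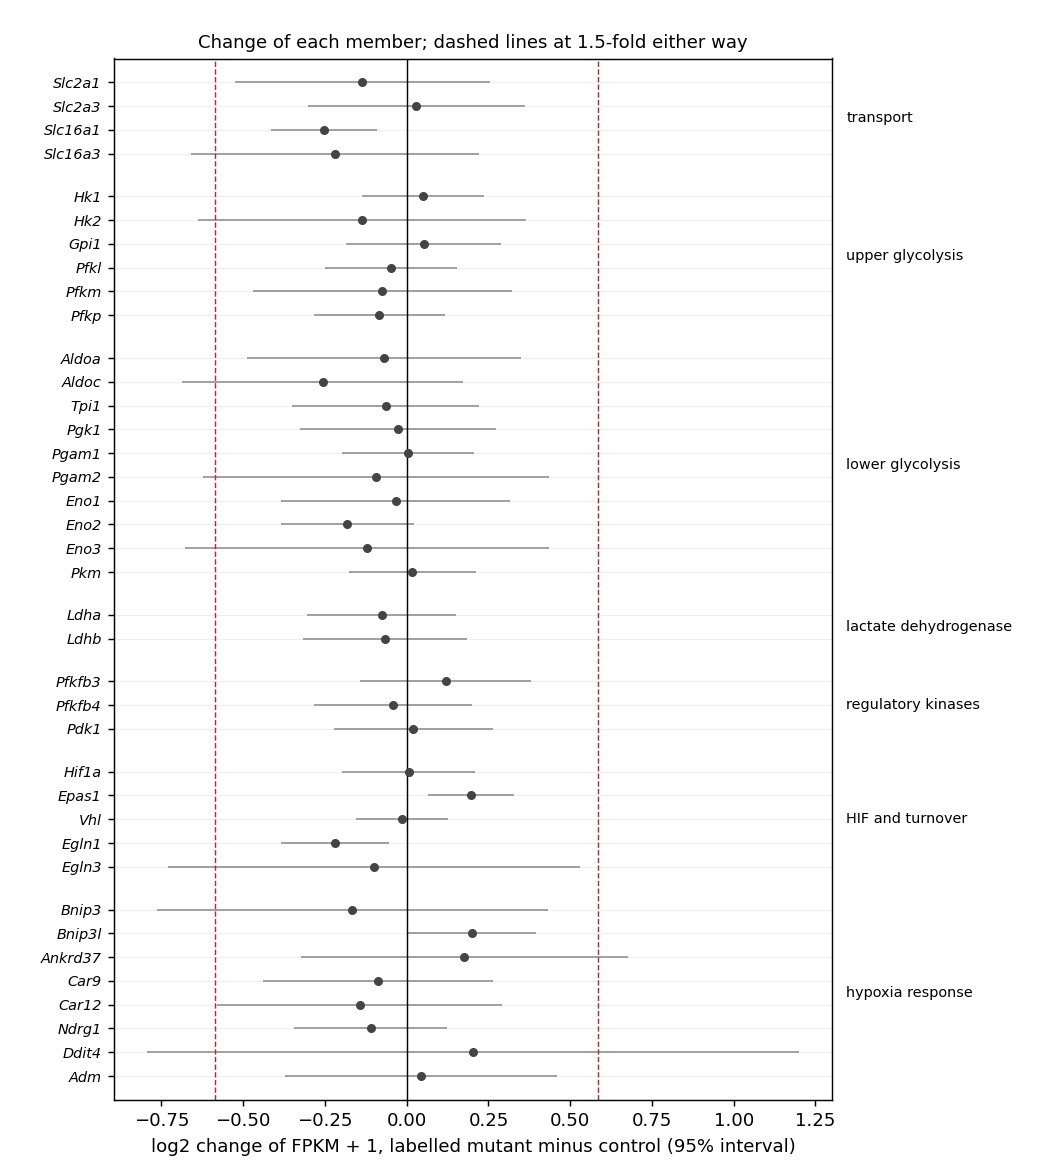
Log2 change of FPKM + 1 (labelled mutant minus control) of each member as a point with its 95% interval as a line, from the limma fit. Dashed lines mark 1.5-fold either way, and 29 of the 38 intervals lie between them.

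Because several of these genes are textbook HIF targets, their promoters were searched for the core of the hypoxia response element, ACGTG or GCGTG on either strand, in the window from 250 bases before to 50 after the RefSeq start (GRCm38.p6, the first window listed for a gene). The 2 letter strings differ at their first base, and matches on opposite strands can overlap, as in CACGTG. Of 34 members in the table, 25 (73.5%) held a match, against 62.9% of the names tested that were in it and 43.8% of all its genes. Epas1, Slc2a3, Bnip3l and Ndrg1 were not matched. The stretches below show the upstream sequence of the members of smallest p that were in the table, Slc16a1 and Egln1, and, as examples picked after the matches were seen, short stretches of Ldha and Bnip3 where matches crowd together. Capitals mark each match. A match is a description of letters and not of binding.
Slc16a1: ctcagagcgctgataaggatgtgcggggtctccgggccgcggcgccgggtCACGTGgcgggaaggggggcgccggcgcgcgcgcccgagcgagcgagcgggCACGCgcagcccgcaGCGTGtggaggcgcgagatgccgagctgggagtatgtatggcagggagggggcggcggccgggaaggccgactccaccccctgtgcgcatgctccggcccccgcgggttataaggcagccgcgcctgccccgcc
Egln1: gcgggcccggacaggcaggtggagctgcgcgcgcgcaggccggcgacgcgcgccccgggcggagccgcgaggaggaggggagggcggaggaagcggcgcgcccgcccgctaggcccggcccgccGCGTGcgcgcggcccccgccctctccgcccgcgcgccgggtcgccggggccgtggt
Ldha: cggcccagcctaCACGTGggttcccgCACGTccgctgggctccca
Bnip3: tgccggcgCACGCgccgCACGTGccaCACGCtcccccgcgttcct
The stretch of Slc16a1 is chr3:104638414-104638663 on the plus strand and has 4 matches in its 250 bases. The stretch of Egln1 is chr8:124949325-124949504 on the minus strand, with 1 match in 180 bases. That of Ldha is chr7:46845744-46845788 on the plus strand, with 3 matches in 45 bases. It lies before the RefSeq start but inside an intron of 1 GENCODE transcript of Ldha that starts further upstream. That of Bnip3 is chr7:138909587-138909631 on the minus strand, with 4 matches in 45 bases. Of these genes, none passed in expression.

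Transport genes stand first in the pathway. Slc2a1, the glucose transporter of many cell types and of red cells, had 12.4, 12.5 and 11.98 FPKM across the controls, against 14.4, 11.2 and 8.38 for libraries 1 to 3 labelled mutant. The controls lay close together and the libraries labelled mutant spread to either side of them, with a coefficient of variation of 26.5%. Slc2a3, a high-affinity glucose transporter known from neurons, stayed between 2.33 and 3.43 FPKM. Slc16a1, which encodes a carrier of lactate and pyruvate, had 19.8, 21.1 and 21.8 FPKM across the controls and 16.95, 16.6 and 18.6 FPKM in those labelled mutant. All 3 controls lay above all 3 of the others. Its means were 20.9 ± 1.04 and 17.4 ± 1.08 FPKM (SD, n = 3 each), a ratio of 0.833, and its log2 change of -0.25 ± 0.07 (SE) had an adjusted p of 0.232 in limma. The gene lies on chromosome 3 from 104638668 to 104658462 of GRCm38. Slc16a3, the lactate exporter of glycolytic cells and a HIF target, was the most abundant of the 4 transporters, at 39.3, 29.6 and 27.5 FPKM across the controls and 26.1, 34.6 and 22.1 in those labelled mutant. Its groups overlapped.

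The enzymes that prepare glucose for splitting had ratios of group means from 0.903 to 1.04. Gpi1, which turns glucose phosphate into fructose phosphate, had 137, 119 and 119 FPKM across the controls and 126, 146 and 117 FPKM in those labelled mutant. Hexokinase, the enzyme that traps glucose in the cell, was represented by Hk1, the housekeeping form, at 17.7 to 20.8 FPKM over all libraries, and by Hk2, the form of muscle and of HIF responses. Hk2 had 11.5, 7.44 and 7.95 FPKM across the controls and 8.55, 9.94 and 5.76 in those labelled mutant. Control 1 was highest and library 3 labelled mutant lowest. Of the phosphofructokinase genes, which encode the committing step, Pfkm of muscle led with means of 96.8 ± 18.8 and 91.7 ± 16.5 FPKM (SD, n = 3 each). Pfkl, the liver form, had means of 16.4 and 15.8 FPKM. Pfkp, the platelet form, had 9.42, 9.36 and 8.63 FPKM across the controls, against 7.84, 9.58 and 8.34 for the others, with overlap. None of these 6 genes had an unadjusted p under 0.05.

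The 10 genes from aldolase to pyruvate kinase were the most abundant group. Aldoa, the aldolase of muscle and most tissues, had 1142, 861 and 903 FPKM across the controls and 882, 1160 and 752 in those labelled mutant, which put it at rank 94 of the 13180 names by mean FPKM. Control 1 and library 2 labelled mutant were high together and library 3 labelled mutant was low. Eno3, the muscle enolase, had the same 2 libraries at the top and the same one at the bottom, with 533, 339 and 398 FPKM across the controls and 378, 511 and 288 in those labelled mutant. Pgam2, the phosphoglycerate mutase of muscle, had 264, 176 and 199 FPKM and 183, 267 and 155 FPKM in the same order. Within each group these genes thus differed by more than the means of the groups did, as the ratios of 0.961 for Aldoa, 0.928 for Eno3 and 0.947 for Pgam2 show.

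Tpi1, Pgk1, Pkm and Pgam1 varied less than those 3 within each group. Tpi1, which interconverts the products of aldolase, had means of 277 ± 34.0 and 265 ± 34.2 FPKM, and Pgk1, an energy-yielding kinase of the pathway and a HIF target, 139 ± 13.3 and 137 ± 22.9 (SD, n = 3 each). Pkm, the pyruvate kinase that ends the route, ran from 289 to 347 FPKM, with a ratio of 1.014. Pgam1, the mutase of most other tissues, ran from 82.1 to 97.7 FPKM with a ratio of 1.00. The neuronal enolase gene Eno2 was a member without overlap and had 9.30, 10.5 and 8.41 FPKM across the controls and 8.37, 8.29 and 7.75 in those labelled mutant. Control 3 and library 1 labelled mutant lay close together, and the adjusted p in limma was 0.545. Aldoc, the aldolase known from brain, was low at 2.84, 3.56 and 2.51 FPKM across the controls and 2.01, 3.27 and 1.80 in those labelled mutant, and its change of -0.26 was the lowest of the 38 (adjusted p of 0.715 in limma).

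Eno1, the enolase of most tissues, needs its near-identical copy Eno1b beside it, since reads that fit both can be divided between them, in a way that the labels do not state. Eno1 had 72.6, 81.5 and 69.2 FPKM across the controls and 79.1, 84.5 and 57.03 in those labelled mutant. Eno1b had 77.1, 83.9 and 76.0 FPKM and 71.2, 80.7 and 94.4 FPKM. In library 3 labelled mutant the value of Eno1 was its lowest of 6 and that of Eno1b its highest. The sum of the pair was 150, 165 and 145 FPKM across the controls and 150, 165 and 151 FPKM in those labelled mutant, with a ratio of means of 1.014. The sum in library 3 labelled mutant lay within the range of the others.

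Lactate dehydrogenase came mainly from Ldha, whose product favours lactate, at 338, 314 and 308 FPKM across the controls and 306, 340 and 268 in those labelled mutant. Ldhb, whose product is typical of oxidative tissue, had 39.8, 40.4 and 40.8 FPKM and 36.9, 45.6 and 33.8 FPKM. The share of Ldha in their summed FPKM stayed between 88.2% and 89.5% in all 6 libraries. Among the regulatory kinases, Pfkfb3 and Pfkfb4 set the level of the strongest activator of phosphofructokinase, and Pdk1 holds pyruvate back from the mitochondria in response to HIF. Pfkfb3 had 4.21, 4.09 and 3.44 FPKM across the controls and 4.67, 4.67 and 3.69 in those labelled mutant. Its groups overlapped, with an adjusted p of 0.808 in limma. Pdk1 had 13.6, 10.1 and 11.9 FPKM across the controls and 11.95, 12.4 and 11.6 in those labelled mutant, and Pfkfb4 lay between 5.74 and 7.28 FPKM.

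Among the oxygen-sensing genes, Hif1a and Vhl had nearly equal means in both groups, with ratios of 1.005 and 0.990. Epas1, which encodes the HIF subunit typical of vessel lining, had 23.6, 22.0 and 22.3 FPKM across the controls and 26.4, 25.3 and 26.6 in those labelled mutant. All 3 controls lay below all 3 of the others. The means were 22.7 ± 0.85 and 26.1 ± 0.68 FPKM (SD, n = 3 each), and the log2 change of 0.20 ± 0.06 (SE) had an adjusted p of 0.243 in limma. The gene lies on chromosome 17 from 86753700 to 86833410. In bulk tissue, more cells of a type and more RNA per cell cannot be told apart. The 6 endothelial markers summed to 176 to 183 FPKM across the controls and 207 to 211 FPKM in those labelled mutant, a ratio of means of 1.17 beside 1.152 for Epas1, and their part in its values was not tested.

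Among the hydroxylase genes, Egln1, the main oxygen sensor that marks HIF for destruction, had 20.2, 21.7 and 20.8 FPKM across the controls and 19.1, 17.96 and 16.4 in those labelled mutant. The groups did not overlap, with means of 20.9 ± 0.72 and 17.8 ± 1.31 FPKM (SD, n = 3 each) and a log2 change of -0.22 ± 0.07 (SE; adjusted p of 0.294 in limma). It lies on chromosome 8 from 124908587 to 124949324. Egln3, a hydroxylase that HIF itself induces, had 21.9, 12.8 and 12.05 FPKM across the controls and 17.4, 15.6 and 9.92 in those labelled mutant. Control 1 stood above its fellow controls and the groups overlapped.

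The HIF targets outside metabolism showed no shared direction, with 4 changes above 0 and 4 below. Bnip3l, a receptor for the removal of mitochondria that maturing red cells also use, had 39.1, 33.0 and 36.4 FPKM across the controls and 43.6, 43.1 and 38.3 in those labelled mutant. Control 1 lay above library 3 labelled mutant, so the groups overlapped, and the adjusted p in limma was 0.467. The 6 measured red cell markers summed to 4846 to 6911 FPKM across the controls and to 11946, 10253 and 2698 FPKM in libraries 1 to 3 labelled mutant. Library 3 labelled mutant was thus lowest of its group in both. Over the 6 libraries, on log2 scales, Bnip3l had a Pearson r of 0.609 with the red cell sum (exact permutation p = 0.185, adjusted p = 0.456). Spearman's rho was 0.714 (exact permutation p = 0.136), so the relation did not pass. How much of the Bnip3l values red cells account for was not tested. The related Bnip3 had 44.4, 24.7 and 27.5 FPKM across the controls and 32.5, 31.8 and 20.4 in those labelled mutant. Ddit4 was the most abundant of these 8 genes and the most variable, at 96.8, 42.9 and 73.4 FPKM across the controls and 142, 63.4 and 51.9 in those labelled mutant. Ndrg1, a stress-responsive gene, had 41.5, 38.7 and 37.4 FPKM and 41.4, 35.8 and 31.9 FPKM. Ankrd37 and Adm, both known to respond sharply to HIF, reached at most 4.06 FPKM. Car9 and Car12, membrane carbonic anhydrases often used as marks of low oxygen, were close to the filter, with means from 0.989 to 1.20 FPKM in the groups.

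**Figure D3:**
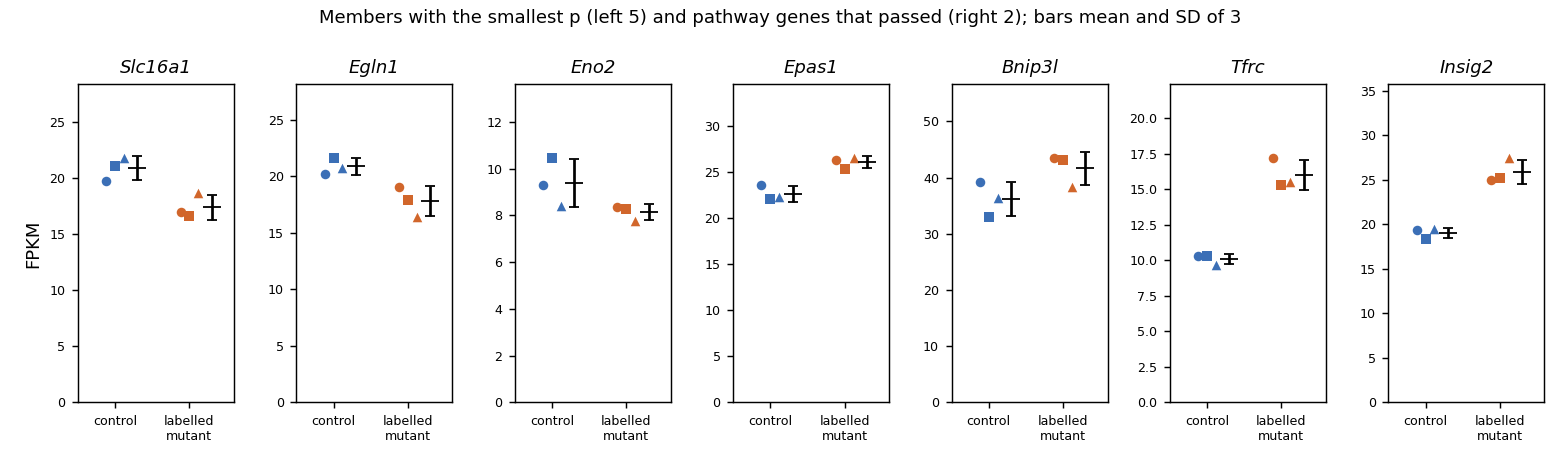
FPKM per library (symbols 1 to 3 as circle, square and triangle) with the mean and SD of 3 beside them, on axes that start at 0, for the 5 members with the smallest p and for Tfrc and Insig2. The groups do not overlap for Slc16a1, Egln1, Eno2, Epas1, Tfrc and Insig2, and overlap for Bnip3l.

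Low values of the members gathered in 1 library. Library 3 labelled mutant held the lowest value of 24 of the 38 members (63.2%), against 18.4% of all names tested, while control 1 held the highest of 10 and library 2 labelled mutant the highest of 12. The 38 genes took 0.738%, 0.614% and 0.636% of the summed FPKM across the controls and 0.62%, 0.713% and 0.524% in those labelled mutant. Without library 3 labelled mutant the median change of the members was 0.04 and 26 of them had a change above 0. Without control 1 the median was 0.02, with 21 above 0. The side on which most members fell thus depended on single libraries.

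Those libraries also stood at the ends of the skeletal muscle markers. The 10 muscle markers, led by Acta1 and Mylpf, summed to 20191, 12456 and 14181 FPKM across the controls and 13568, 17902 and 10649 in those labelled mutant, so control 1 was highest, library 2 labelled mutant next and library 3 labelled mutant lowest. Tpi1 and Eno3 followed the same order in all 6 libraries. Over the 6 libraries and on log2 scales, 10 of the 38 members had a Pearson r above 0.9 with the muscle sum. The share of all names tested that reach such an r was not computed, so this count does not set the members apart. Of 76 relations computed (38 members with the muscle and the red cell sums), 5 passed after Benjamini-Hochberg adjustment of exact permutation p-values, all with muscle, namely those of Tpi1, Eno3, Pfkm, Pgam2 and Hk2. These correlations were not among the planned tests, and the adjustment covers only these 76 relations, not the choice of marker lists. For Eno3, r was 0.993 (exact permutation p = 0.00139, the smallest that 6 libraries allow, adjusted p = 0.0422) and Spearman's rho was 1 (exact permutation p = 0.00278, adjusted p = 0.106). For Hk2, r was 0.972 (exact permutation p = 0.00278, adjusted p = 0.0422) and rho 0.943 (exact permutation p = 0.0167, adjusted p = 0.158). Without the 2 libraries farthest from the median muscle sum, r was 0.999 for Eno3 and 0.933 for Hk2, and it lay between 0.984 and 0.991 for Tpi1, Pfkm and Pgam2. Of the libraries left, library 2 labelled mutant stood apart at 17902 FPKM, with the rest at 12456 to 14181 FPKM. Any r with the muscle sum computed without those 2 thus leans on 1 library. No rho passed after adjustment, and 3 libraries a group are too few for a value within a group. These values share library, total and scale. Library 3 labelled mutant also had the lowest red cell sum (2698 FPKM), neural sum (20.2 FPKM) and relative depth (0.703). It had the highest osteoblast sum (15720 FPKM). Only the muscle and red cell sums were correlated with the members.

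Other members lay outside that order. Pgam1 went against the muscle sum, with an r of -0.919 (exact permutation p = 0.0153, adjusted p = 0.115) and a rho of -0.943 (exact permutation p = 0.0167, adjusted p = 0.158), and r was -0.950 without the 2 farthest libraries. Slc16a1, Epas1 and Egln1 had r of -0.153, -0.176 and 0.261 (exact permutation p = 0.740, 0.707 and 0.615) and rho of -0.0857, -0.257 and 0.143 (exact permutation p = 0.919, 0.658 and 0.803). With the red cell sum no relation passed, and the highest r was 0.816 for Adm (exact permutation p = 0.0528, adjusted p = 0.287; rho 0.714, exact permutation p = 0.136), which was 0.402 without the 2 farthest libraries.

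**Figure D4:**
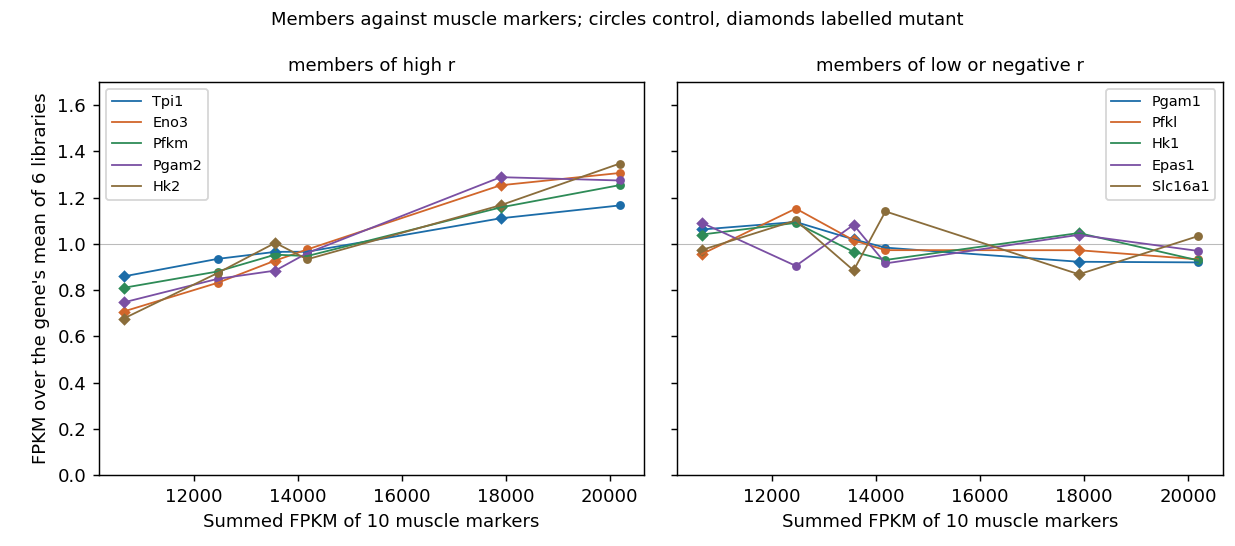
FPKM of 10 members divided by the gene's mean over the 6 libraries, against the summed FPKM of 10 skeletal muscle markers, with circles for controls and diamonds for libraries labelled mutant. On the left Tpi1, Eno3, Pfkm, Pgam2 and Hk2 climb with the muscle sum in both kinds of library, and on the right Pgam1 falls while Pfkl, Hk1, Epas1 and Slc16a1 follow no such line.

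With the mean log2 level of the muscle markers as a covariate, a fit chosen after seeing the data, again none of the 38 members passed in limma. The standard error shrank for 32 of them, for Eno3 from 0.24 to 0.055 and for Pfkm from 0.17 to 0.049. Eno3 and Pfkm already followed the muscle sum over the same libraries, so their smaller errors restate that relation and are no separate test. How many of all names tested had a smaller error was not computed, so the count of 32 does not set the members apart. With the covariate, the changes of Eno3, Pfkm, Aldoa and Pgam2 lay between 0.01 and 0.03. Slc16a1 had a change of -0.28 with an adjusted p of 0.12, and Bnip3l one of 0.23 with an adjusted p of 0.175. The median change of all 38 was -0.0036 in that fit.

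FPKM is scaled by transcript length, so the forms of an enzyme can be set beside each other within a library. In these libraries the muscle forms made up most of the summed FPKM at 3 steps, with Pfkm at 74.8% to 82.9% of phosphofructokinase, Pgam2 the larger part of phosphoglycerate mutase (Pgam1 took 23.6% to 37.997%) and Eno3 at 78.7% to 86.7% of the sum of Eno1, Eno2 and Eno3. With Eno1b counted together with Eno1, a choice made after seeing the data, the Eno3 share was 64.4% to 77.0%, and the groups overlapped either way. Hk1 outweighed Hk2, at 60.7% to 77.5%. Of 17 shares compared, 2 had groups that did not overlap. The share of Hif1a in the sum of Hif1a and Epas1 was 45.9%, 45.9% and 49.4% across the controls and 45.0%, 41.9% and 44.0% in those labelled mutant, and that of Bnip3 in the sum of Bnip3 and Bnip3l was 53.1%, 42.8% and 43.0% against 42.7%, 42.4% and 34.7%. For Bnip3 the lowest control and the highest of the others lay close together. Both had an exact permutation p of 0.1, two-sided, the smallest that 3 values against 3 allow, and an adjusted p of 0.85.

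**Figure D5:**
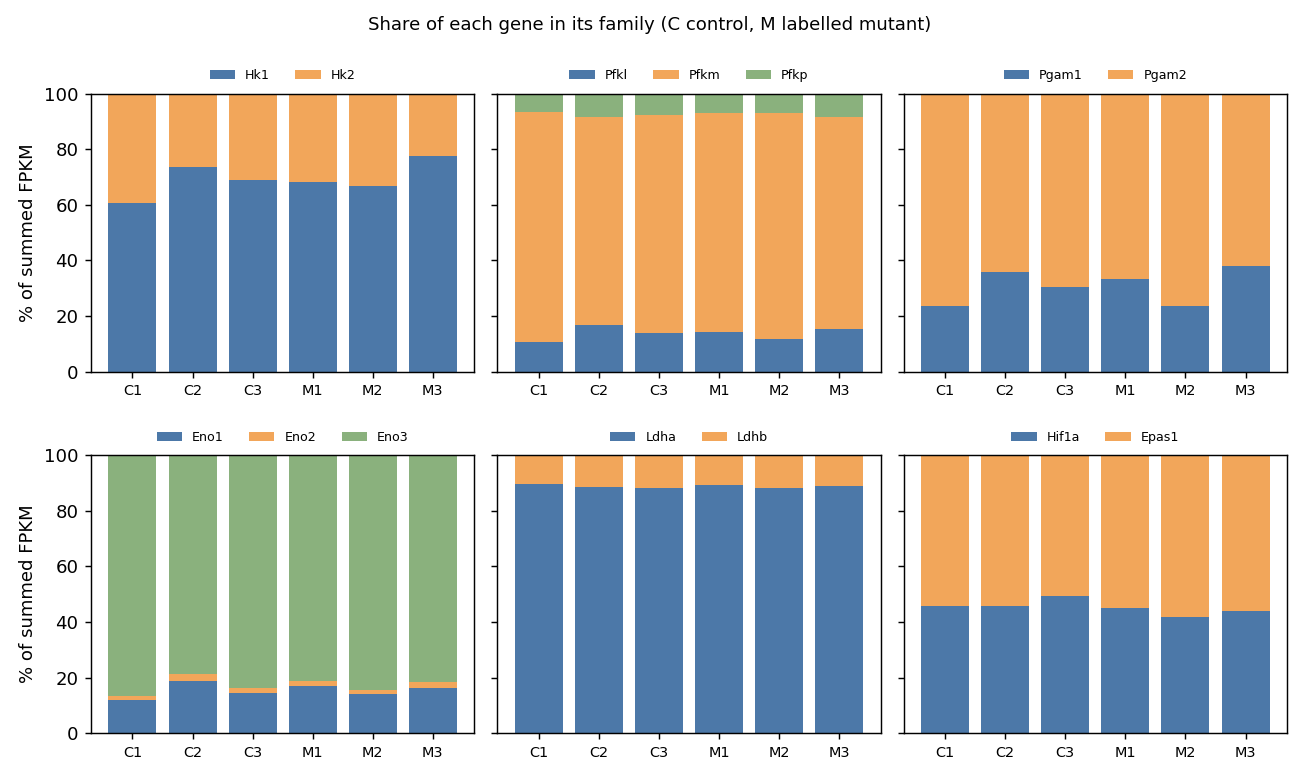
Stacked bars of each gene's percent of the summed FPKM of its family in controls 1 to 3 (C1 to C3) and libraries 1 to 3 labelled mutant (M1 to M3), for 6 families, with Eno1b left out of enolase. Pfkm, Pgam2 and Eno3 take the larger part in every library, Ldha stays between 88.2% and 89.5%, and the Hif1a share is lower in every library labelled mutant than in any control.

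Of 72 further genes of glycolysis, pyruvate entry into mitochondria and the HIF pathway, from lists written with earlier results of these data known, 59 were tested and 2 passed, both higher, or 2 of 59 against 0.607% of all names tested. Both belonged to the 33 tested genes of the HIF pathway, and 0 of 15 in other glycolysis and 0 of 11 in pyruvate entry passed. At an unadjusted p under 0.05 there were 7 of 33 in the HIF list (21.2%, 4 higher and 3 lower), 2 of 15 and 0 of 11, against 10.5% of all names tested. Tfrc, the transferrin receptor that brings iron into cells, rose from 10.3, 10.3 and 9.64 FPKM in controls to 17.2, 15.3 and 15.5 FPKM in those labelled mutant, a ratio of 1.59 and a log2 change of 0.62 ± 0.07 (SE; adjusted p of 0.0166 in limma). Insig2, a brake on sterol synthesis, rose from 19.4, 18.4 and 19.4 FPKM to 25.0, 25.2 and 27.5 FPKM, a ratio of 1.36 and a log2 change of 0.42 ± 0.06 (SE; adjusted p of 0.0424 in limma). Tfrc lies on chromosome 16 from 32608920 to 32632794 and Insig2 on chromosome 1 from 121304353 to 121332589. Leaving out any 1 library ended both calls, with adjusted p in limma up to 0.0738 for Tfrc and 0.15 for Insig2. With all 6 libraries kept, the Insig2 call also ended when low values were kept (adjusted p of 0.0626), with eBayes without trend (0.0657), with the muscle covariate (0.0599) and with the replicate number as a block (0.116), the last of which ended the Tfrc call too (0.0722). Beside Tfrc, which iron-demanding osteoclasts and red cell precursors are known to express, the 10 osteoclast markers summed to 615 to 688 FPKM across the controls and 1651 to 1797 FPKM in those labelled mutant, whereas the red cell sum overlapped between groups, and their part in the Tfrc values was not tested.

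The other genes of smallest p in those lists did not pass. Ak4, a mitochondrial adenylate kinase and HIF target, had 3.53, 3.20 and 3.21 FPKM across the controls and 2.32, 2.25 and 2.16 in those labelled mutant, without overlap (log2 change -0.41, adjusted p of 0.107 in limma). Galm, which encodes galactose mutarotase, had 8.48, 8.10 and 6.90 FPKM and 10.99, 9.65 and 10.8 FPKM (0.38, adjusted p of 0.176). Slc16a7, a high-affinity pyruvate carrier, had 1.53, 1.03 and 1.595 FPKM and 2.54, 1.99 and 2.44 FPKM (0.48, adjusted p of 0.235). Ldhd, which acts on the other mirror form of lactate, had 1.65, 1.71 and 1.53 FPKM and 1.14, 1.43 and 1.10 FPKM, a ratio of 0.751. Of the pyruvate entry genes, Pdk3 had 10.1, 9.83 and 10.6 FPKM and 10.8, 12.3 and 11.2 FPKM, a ratio of 1.12 without overlap. Pcx had 4.08, 4.89 and 4.56 FPKM and 3.69, 4.51 and 3.38 FPKM, a ratio of 0.856 with overlap. Pdk4 had 72.9, 40.6 and 46.3 FPKM and 29.6, 57.4 and 37.4 FPKM, a ratio of 0.778 with overlap. The 12 cartilage markers, led by Col2a1 and Col11a2, summed to between 1187 and 2319 FPKM across the controls. In those labelled mutant they summed to between 577 and 735 FPKM, a ratio of means of 0.348. The sum was not tested. Of its genes, Matn1, Col9a3, Lect1 and Ucma passed in limma, all lower, and Col2a1 did not (adjusted p of 0.0638). Comp, Col11a2 and Hapln1 overlapped between groups, and Comp had a ratio of 1.23. The libraries were the same as those in which none of the 38 members passed.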

How the data were processed

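Total RNA of homogenised newborn calvaria was sequenced from 3 control libraries and 3 labelled mutant after a stranded messenger RNA preparation, per the labels' protocols. The deposited values were read as FPKM, the unit of Cufflinks, since the files carry no unit. The submitters' processing notes name Cufflinks 2.2.1, Bowtie2 2.2.3, TopHat2 2.0.13, SAMtools 0.1.19 and the build mm10, without their roles. The sources used here give neither options, annotation, use of strand nor read totals. Absolute depth is therefore unknown, and no count test was run. Of the members, 6 have a span that overlaps another protein-coding gene and 6 have pseudogenes named after them in GENCODE M21, which can divide their reads.

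The test was limma 3.58.1 under R 4.3.3 (lmFit, eBayes with trend), applied to log2(FPKM + 1) of every name whose mean reached 1 FPKM, group as the 1 term, two-sided, with Benjamini-Hochberg adjustment over 13180 names at 0.05. Ratios are of mean FPKM. The procedure was tested on simulated data with noise drawn independently for each gene. That simulation lacks the variation that genes share between libraries, so it cannot tell how the test behaves under such variation. Shares within enzyme families and correlations with marker sums were tested by exact permutation, the correlations without having been planned. Values per library are given for the 10 members of smallest p and the most abundant member of each role, and from other lists for genes that passed and the 3 of smallest p. Genes named beyond this were picked after their values were seen. Of the marker lists, Hbb-bt, Ahsp and Epb42 matched no name. Hba-a2, listed at up to 0.014 FPKM, was the lowest red cell marker. Sums of the lists for neural cells (20.2 to 106 FPKM), neutrophils (36.2 to 95.4), macrophages (256 to 319), epidermis (1.47 to 3.90) and handling response (81.7 to 167) overlapped between groups. The members and all lists were chosen with earlier results of these data known. Coordinates are from GENCODE M21 (GRCm38, the assembly that mm10 denotes), and promoter sequences from RefSeq (GRCm38.p6), with the Egln1 stretch ended before the GENCODE start of the gene.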

Additional observations from a re-analysis of the deposited data

How the results depend on the processing

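No member passed in any of the 16 other settings (31 members could be tested with the filter at 5 FPKM, 37 without control 3 and 38 in the rest), with smallest adjusted p values from 0.0803 (array weights) to 0.45 (without control 3), in limma with Benjamini-Hochberg adjustment. The replicate number as a block gave 23 rises and 2 falls over all names, against 69 and 11 without it, and 0 pathway genes. Over all names tested, same-numbered libraries deviated from their group means with correlations of 0.0163, -0.0714 and 0.0152, so this check showed no pairing by number. It cannot detect a pairing that affects few genes, and the labels do not say how the animals are related. With the block, 0 of the 38 members passed. All names gave 44 rises and 6 falls when low values were kept, 152 and 31 with array weights, and 15 to 34 and 1 to 12 without 1 library. Pathway rises numbered 1 when low values were kept, 1 with eBayes without trend, 1 with the muscle covariate and 0 without any 1 library. The median change of the members was -0.024 with array weights, -0.0036 with the muscle covariate and -0.14 to 0.044 without 1 library. The direction was the same in every setting for 11 members and turned in at least 1 for 27, none of them called. Median-of-ratios scaling gave -0.00099 for Pgam1, quantile normalization -0.031 for Pkm and -2.6e-05 for Hif1a. Array weights gave 0.043 for Slc2a1, 0.0039 for Pfkl, 0.072 for Eno1, 0.13 for Egln3 and 0.00059 for Ndrg1. The muscle covariate gave 0.018 for Pfkm, 0.026 for Aldoa, 0.038 for Pgk1, -0.034 for Pgam1, 0.028 for Pgam2, 0.0099 for Eno1, 0.012 for Eno3, -0.0065 for Hif1a and 0.032 for Egln3. Without 1 library the log2 change ran from -0.053 to 0.071 for Pgam1, -0.054 to 0.077 for Pkm, -0.045 to 0.075 for Hif1a, -0.31 to 0.046 for Slc2a1, -0.10 to 0.040 for Pfkl, -0.14 to 0.14 for Eno1, -0.25 to 0.16 for Egln3, -0.21 to 0.076 for Pfkm, -0.24 to 0.074 for Aldoa, -0.15 to 0.074 for Pgk1, -0.32 to 0.076 for Pgam2, -0.33 to 0.081 for Eno3, -0.29 to 0.061 for Hk2, -0.16 to 0.034 for Tpi1, -0.33 to 0.083 for Bnip3, -0.098 to 0.12 for Slc2a3, -0.082 to 0.12 for Pdk1, -0.23 to 0.49 for Ddit4, -0.14 to 0.0091 for Pfkfb4, -0.041 to 0.012 for Vhl, -0.16 to 0.016 for Car9, -0.068 to 0.24 for Adm, -0.036 to 0.12 for Gpi1, -0.16 to 0.014 for Ldha, -0.19 to 0.025 for Ldhb and -0.24 to 0.0082 for Car12. The cause was not tested, except that fits without a library have fewer samples. With 3 libraries a group and unknown depth, the intervals given above limit how precisely each change is known.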
